A study of Mus musculus with 23 samples.

Results

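The genes described here are 8 genes through which the duodenum takes up, stores and exports iron: Cybrd1, Slc11a2, Slc40a1, Heph, Tfrc, Fth1, Ftl1 and Epas1. They were chosen by name, and all 8 were found among the 55416 gene rows and passed the filter on low counts, which left 13405 genes. The 23 libraries, 1 per mouse, were made from RNA scraped off the upper small intestine; the mice were C57BL/6JRccHsd and labelled female. From day 21 the GAL42 mice (n = 12) ate a pelleted diet with 16% of its energy as galactose and 16% as glucose, and the GLU42 mice (n = 11) ate one with 32% as glucose. The diets had no other stated difference, lasted 3 weeks, and all mice were killed at 42 days of age.

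Dietary iron is reduced at the brush border, carried into the enterocyte by a divalent metal transporter, held in ferritin or passed to the blood by ferroportin, and oxidised on the way out. Iron regulatory proteins bind iron-responsive elements, hairpins in the untranslated ends of ferritin, ferroportin and transferrin receptor mRNAs. In the mouse intestine the transcription factor HIF2, whose alpha subunit is encoded by Epas1, is known to drive the reductase, the importer and the exporter when iron is scarce.

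Hairpins of the canonical form are shown because they let members be set side by side by sequence. The pattern searched was a C, 5 bases, the loop CAGTGN and 5 bases that pair with the first 5, with G-U pairs allowed, on the transcript strand. Of the 8 members, 4 held it, against 1.34% of 21901 protein-coding genes. These 4 are the ferritin, ferroportin and transferrin receptor genes already known for such hairpins, so the count is a description and not a test. Capitals mark the bulged C and the loop, and the transcripts are those of GENCODE on GRCm38, written 5′ to 3′ in DNA letters.
Fth1 5′ UTR: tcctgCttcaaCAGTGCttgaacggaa
Ftl1 5′ UTR: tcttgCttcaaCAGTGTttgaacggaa
Slc40a1 5′ UTR: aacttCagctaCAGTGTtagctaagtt
Tfrc 3′ UTR, the first of 4: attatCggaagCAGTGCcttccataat
Cybrd1, Slc11a2, Heph and Epas1 had no match to these letters in the coding transcripts searched; the pattern misses elements with an extra bulge, such as those known in Slc11a2 and Epas1.

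A hypoxia response core, ACGTG or GCGTG on either strand, was searched in the 250 bases before each RefSeq start on GRCm38.p6, and 38.6% of 32851 such windows held it. Windows were on hand for 4 members. The Tfrc windows at its 2 listed starts held 2 and 3 cores, those of Fth1 held 0 and 1, and that of Ftl1 held 1. The Cybrd1 window, chr2:71117804-71118053 on the plus strand, held 1 core, in capitals, and is shown as the window of the 1 HIF2-type gene on hand.
Cybrd1 promoter: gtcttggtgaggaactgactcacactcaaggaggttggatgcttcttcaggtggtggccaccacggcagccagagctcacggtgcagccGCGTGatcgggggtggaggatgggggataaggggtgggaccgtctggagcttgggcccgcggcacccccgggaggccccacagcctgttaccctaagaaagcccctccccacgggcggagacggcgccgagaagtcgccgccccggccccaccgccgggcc
A match is a description of letters and not a binding site.

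Libraries held 15382583 to 17174721 counts in genes. Some libraries stood apart. GAL42 replicate 2 had a summed level of 640 CPM (counts scaled to library size) over 10 pancreatic acinar markers, against 3.70 to 7.94 CPM in the other 22 libraries, and it was the highest of all 23 libraries for 7 of the 8 members, all but Tfrc. GAL42 replicate 12, labelled female, had 4 Xist counts and 225 counts over 4 Y-linked genes, where the other libraries had at least 778 and at most 1. A score of gut position, proximal minus distal markers in log2 CPM, was 0.10 in GLU42 replicate 10 and 0.19 in GLU42 replicate 11, against 0.55 or more elsewhere. Values without GAL42 replicate 2 are given beside most of the members' results.

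No member passed the diet test. With edgeR's quasi-likelihood test 0 of the 13405 genes were called at an adjusted p under 0.05 (0.0%), the smallest adjusted p being 0.135, and limma-voom also called 0. At an unadjusted p under 0.05 the edgeR fit had 1924 genes (14.4%) and 0 of the 8 members. DESeq2 called 132 genes (0.985%) and voom with sample quality weights 167 (1.25%), with 0 members in both; DESeq2 gave Cybrd1 no adjusted p. Without GAL42 replicate 7 edgeR called 219 genes (1.64%), and without replicates 7 and 12 together 321 (2.4%), again with 0 members. Of the 8 members, 5 were higher and 3 lower in GAL42, with a median log2 difference of 0.08, against -0.0017 over all genes tested, of which 49.5% were higher. Without GAL42 replicate 2 the tally turned to 3 higher and 5 lower, with a median of -0.04.

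**Figure D1:**
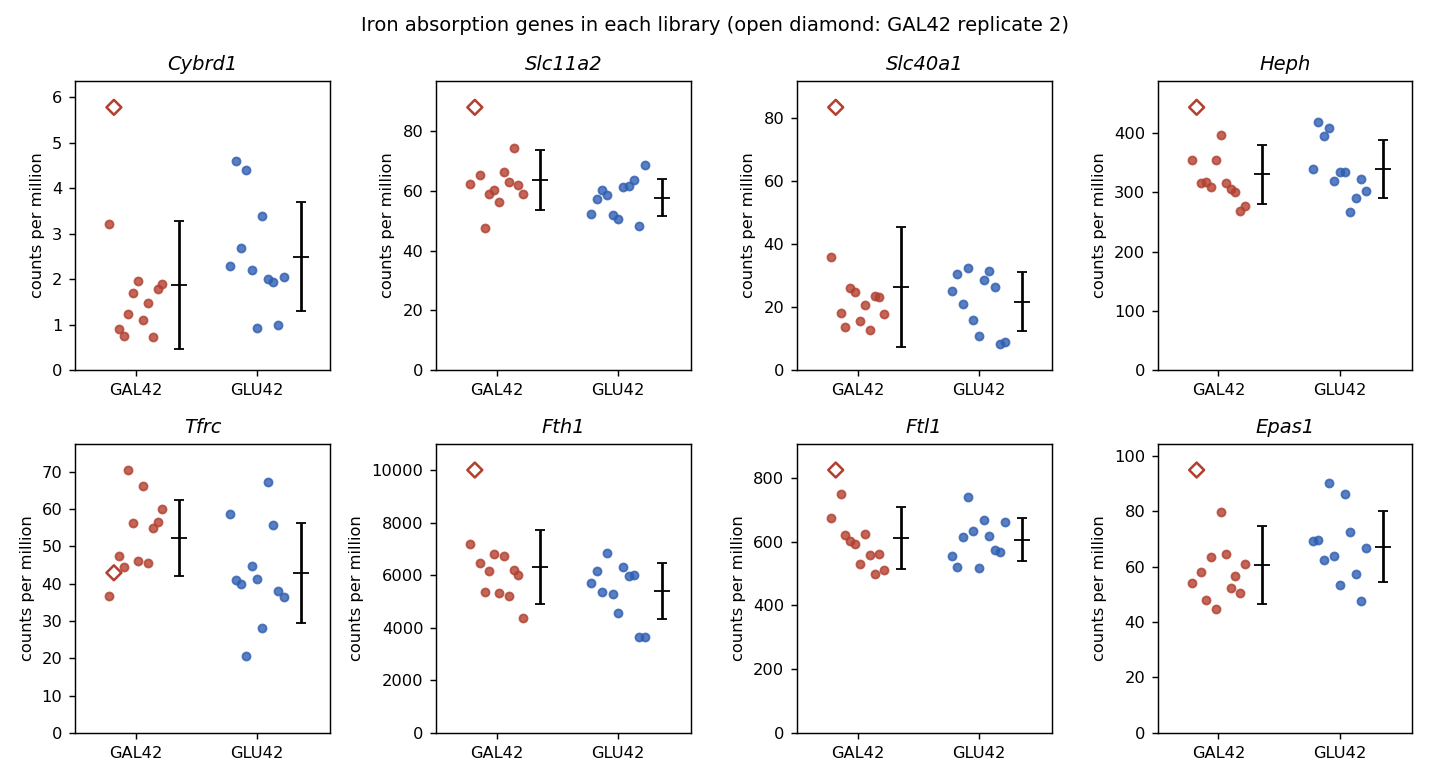
CPM of each member in every library, GAL42 (12 libraries) left of GLU42 (11 libraries); points are mice, bars show the mean ± SD, and each axis starts at 0. The open diamond, GAL42 replicate 2, is the highest point for every member except Tfrc, and the groups overlap in all 8 panels.

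Cybrd1, the apical ferric reductase known as duodenal cytochrome b, was the scarcest member. It ranged from 0.734 through a median of 1.59 to 5.78 CPM in GAL42 mice, against 0.939, 2.21 and 4.60 CPM in GLU42 mice, which is 11 to 88 and 16 to 74 reads. The groups overlapped, with 10 of 12 GAL42 libraries below the GLU42 median. The log2 difference was -0.41 ± 0.31 (SE; edgeR adjusted p = 0.561). Without GAL42 replicate 2 it was -0.71 ± 0.27, with an unadjusted p of 0.0145 and an adjusted p of 0.253 in edgeR. With the libraries' length slope as a covariate, which is the trend over genes of their deviation in log2 CPM on log transcript length in each library, the difference was 0.08 ± 0.34. The length slope itself had a median of -0.042 in GAL42 and 0.048 in GLU42 libraries.

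Slc11a2 encodes the divalent metal transporter DMT1, which carries ferrous iron across the apical membrane. It was steady among mice, with 47.4, 62.0 and 87.9 CPM as lowest, median and highest in GAL42, against 48.3, 58.5 and 68.6 CPM in GLU42. In 10 of 12 GAL42 libraries it was above the GLU42 median, yet the ranges overlapped. The log2 difference was 0.14 ± 0.08 (edgeR adjusted p = 0.405), and 0.09 ± 0.07 without GAL42 replicate 2.

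Slc40a1 encodes ferroportin, the basolateral iron exporter, and spanned 10.1-fold between the highest and lowest library, or 4.33-fold without GAL42 replicate 2, where Cybrd1 spanned 7.87-fold and 6.26-fold. It had 12.7, 21.9 and 83.3 CPM as lowest, median and highest in GAL42 mice, against 8.28, 24.99 and 32.2 CPM in GLU42 mice. The highest value was GAL42 replicate 2, and the next GAL42 library had 35.9 CPM. The 2 lowest of all 23, at 8.28 and 9.06 CPM, were GLU42 replicates 10 and 11, the libraries with the lowest gut position scores. The log2 difference was 0.27 ± 0.28 (edgeR adjusted p = 0.693), and it turned to -0.04 ± 0.22 without GAL42 replicate 2. Ferroportin is also made by macrophages, whose marker list summed to 142 to 263 CPM in GAL42 and 132 to 260 CPM in GLU42. Slc40a1 had a negative correlation with all 9 tested genes of the list, with a median r of -0.16, beside 0.0001 over all genes. With the same list the median was -0.36 for Slc11a2 and -0.28 for Cybrd1, so this was not particular to Slc40a1. The part of macrophages in the Slc40a1 values was not tested. In bulk tissue, fewer cells of a type and less RNA per cell cannot be told apart.

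Heph, hephaestin, is the copper ferroxidase that works with ferroportin. Its level was 269, 316 and 443 CPM as lowest, median and highest in GAL42 mice and 267, 335 and 419 CPM in GLU42 mice. The groups lay on top of each other, with a log2 difference of -0.04 ± 0.08 (edgeR adjusted p = 0.865). With the length slope as a covariate it was 0.10 ± 0.09, and without GAL42 replicate 2 it was -0.08 ± 0.08.

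Tfrc, transferrin receptor 1, takes up iron from the blood and is known for its use by dividing crypt cells. It had 36.7, 51.2 and 70.5 CPM as lowest, median and highest in GAL42 mice, against 20.7, 41.1 and 67.4 CPM in GLU42 mice. In 11 of 12 GAL42 libraries Tfrc was above the GLU42 median, and the ranges overlapped. The log2 difference was 0.28 ± 0.14 (edgeR unadjusted p = 0.0588, adjusted p = 0.369), and with the length slope as a covariate it was 0.07 ± 0.15. Across the 23 libraries Tfrc had r = -0.69 with the villus tip minus crypt marker score and -0.59 with the length slope.

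Fth1 and Ftl1 encode the heavy and light chains of ferritin, the iron store of the cell. Fth1 had 4371, 6170 and 9998 CPM as lowest, median and highest in GAL42 mice, against 3640, 5683 and 6837 CPM in GLU42 mice. Its log2 difference was 0.23 ± 0.12 (edgeR adjusted p = 0.384), with 8 of 12 GAL42 libraries above the GLU42 median, and it was 0.15 ± 0.10 without GAL42 replicate 2. Of 9 T cell markers 0 passed the diet test; all 9 had a positive log2 difference, 6 at an unadjusted p under 0.05 beside 14.4% of all genes. Their summed CPM had r = 0.71 and rho = 0.57 with Fth1, the highest r among the 14 marker lists. Fth1 also had r = 0.52 with the gut position score. Its lowest libraries, at 3641 and 3640 CPM, were GLU42 replicates 10 and 11, which had the lowest position scores. The part of T cells or of gut position in the Fth1 values was not tested. Ftl1 had 500, 598 and 824 CPM in GAL42 mice, against 517, 613 and 738 CPM in GLU42 mice. Its log2 difference was 0.02 ± 0.08 (edgeR adjusted p = 0.950), and it turned to -0.03 without GAL42 replicate 2. Processed copies share sequence with both genes. Ftl1-ps1 held up to 121 reads, against at least 7485 for Ftl1, and Fth-ps3 up to 4, against at least 58666 for Fth1. Rows that name no gene held 13.5% of reads over all genes, and the ferritin share of these was not measured, so the ferritin values keep that uncertainty.

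Epas1 had 44.7, 57.3 and 94.8 CPM as lowest, median and highest in GAL42 mice, against 47.7, 66.7 and 90.1 CPM in GLU42 mice. It was below the GLU42 median in 10 of 12 GAL42 libraries, with overlapping ranges. The log2 difference was -0.15 ± 0.11 (edgeR adjusted p = 0.567). Without GAL42 replicate 2 it was -0.22 ± 0.10, at an unadjusted p of 0.035 and an adjusted p of 0.313 in edgeR. In that fit 3 of 8 members, Cybrd1, Epas1 and Tfrc, had an unadjusted p under 0.05, beside 14.3% of all genes, and 0 passed adjustment.

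Per kilobase of the longest coding transcript, the order of levels over all 23 libraries was Fth1 (3936 CPM per kb), Ftl1 (629), Heph (70.5), Slc11a2 (13.7), Epas1 (11.6), Tfrc (9.78), Slc40a1 (7.15) and Cybrd1 (0.407). Slc11a2, Epas1, Tfrc and Slc40a1 overlapped with their neighbours in that order. The ranges of Fth1, Ftl1 and Heph, and the step down to Cybrd1, did not overlap.

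Pairs of members were then compared across mice. Of 28 pairs, 9 had a Pearson correlation of log2 CPM across the 23 libraries at an adjusted p under 0.05 (permutation test, 100000 resamples, two-sided, Benjamini-Hochberg over the 28 pairs), 8 of them positive and 1 negative. By Spearman's rho 5 pairs passed. Of the 28, 24 were positive, and the median r was 0.40. The share of other gene pairs with such values was not measured. Ranked over all other 13404 genes by r of deviations from the diet mean, Cybrd1 (0.60) was number 746 for Heph. In the same ranking Slc40a1 (0.92) was number 1 for Fth1. Without GAL42 replicate 2 the count of pairs passing fell to 2, Slc40a1 with Fth1 and Cybrd1 with Epas1.

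**Figure D2:**
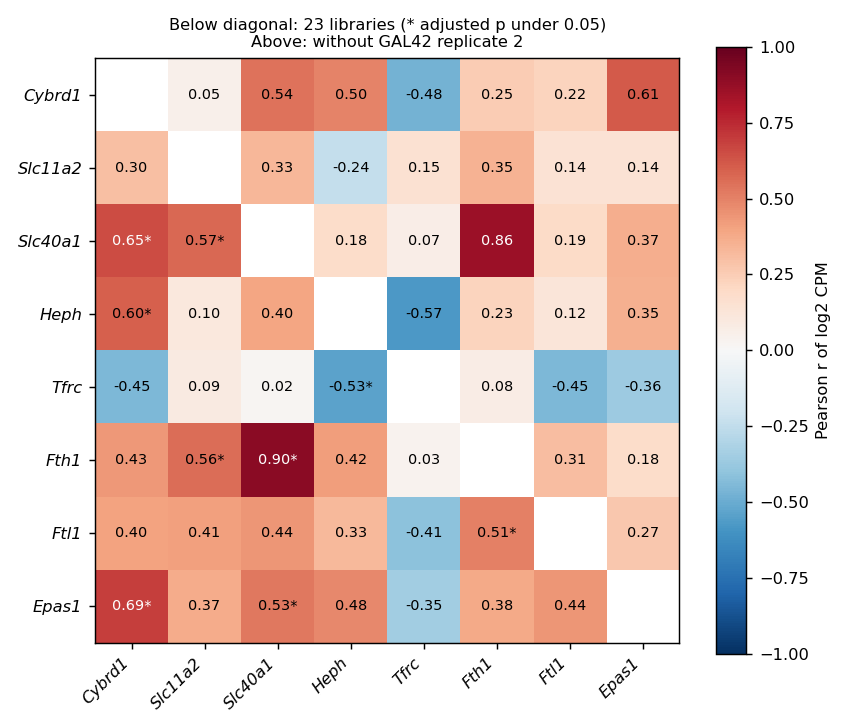
Pearson r of log2 CPM for each pair of members, over 23 libraries below the diagonal and without GAL42 replicate 2 above it; stars mark an adjusted permutation p under 0.05. Slc40a1 with Fth1 is 0.90 below the diagonal and 0.86 above it, and Slc11a2 with Slc40a1 is 0.57 and 0.33.

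Ferroportin and ferritin heavy chain formed the closest pair. Slc40a1 and Fth1 had r = 0.90 and rho = 0.79 (adjusted permutation p = 0.00028, the smallest the resamples can give after adjustment, and 0.00056). It was 0.87 within GAL42 (0.70 without replicate 2) and 0.97 within GLU42, 0.86 without GAL42 replicate 2, and 0.82 without the 2 libraries farthest from the median. Ranking all other 13404 genes by r of deviations from the diet mean, each was first for the other, at 0.92. Among 8 markers of the proximal gut, Pdx1, a transcription factor of the proximal gut and pancreas, had the highest correlation with Slc40a1, r = 0.85, and had 0.83 with Fth1. Both Pdx1 values include GAL42 replicate 2, the library with the pancreatic acinar transcripts. The median r of the 8 with Slc40a1 was 0.23, and their summed CPM had r = 0.13 with Slc40a1 and 0.16 with Fth1. After residuals on Pdx1, chosen after the data were seen, the correlation of the pair was 0.67 (adjusted permutation p = 0.0176), and on the gut position score it was 0.87.

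Cybrd1 varied with ferroportin, with Epas1 and with Heph. Cybrd1 with Slc40a1 had r = 0.65 and rho = 0.61 (adjusted permutation p = 0.00439 and 0.022). It was 0.74 within GAL42 but 0.41 there without replicate 2, 0.76 within GLU42, and 0.62 without the 2 farthest libraries. With GAL42 replicate 2 left out, r was 0.54 and its adjusted permutation p was 0.0687. Cybrd1 with Epas1 had r = 0.69 and rho = 0.69 (adjusted permutation p = 0.00378 and 0.00574), and 0.62 without the 2 farthest libraries. It was 0.54 within GAL42 but 0.09 there without replicate 2, and 0.83 within GLU42. The difference between the diets was not tested. Cybrd1 with Heph had r = 0.60 and rho = 0.55 (adjusted permutation p = 0.0182 and 0.0417), and 0.50 without GAL42 replicate 2. Slc40a1 with Epas1 had r = 0.53 and rho = 0.47 (adjusted permutation p = 0.0318 and 0.0964). It was 0.37 without GAL42 replicate 2, 0.71 within GLU42 and -0.13 within GAL42 without replicate 2. Slc11a2 with Fth1 (r = 0.56) and Fth1 with Ftl1 (0.51) also passed, at 0.35 and 0.31 without GAL42 replicate 2.

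Slc11a2 was less steady in its relation to the other two HIF2-type genes when single libraries were left out. Slc11a2 with Slc40a1 had r = 0.57 but rho = 0.31 (adjusted permutation p = 0.0281 and 0.249). It was 0.73 within GAL42 but 0.38 there without replicate 2, and 0.33 within GLU42. Without GAL42 replicate 2 it was 0.33, and without the 2 libraries farthest from the median 0.28, so the relation rests on those samples. Cybrd1 with Slc11a2 had r = 0.30 and rho = 0.04 (adjusted permutation p = 0.195 and 0.902). It was 0.05 when GAL42 replicate 2 was left out, and after residuals on the length slope 0.60 (adjusted permutation p = 0.0124).

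**Figure D3:**
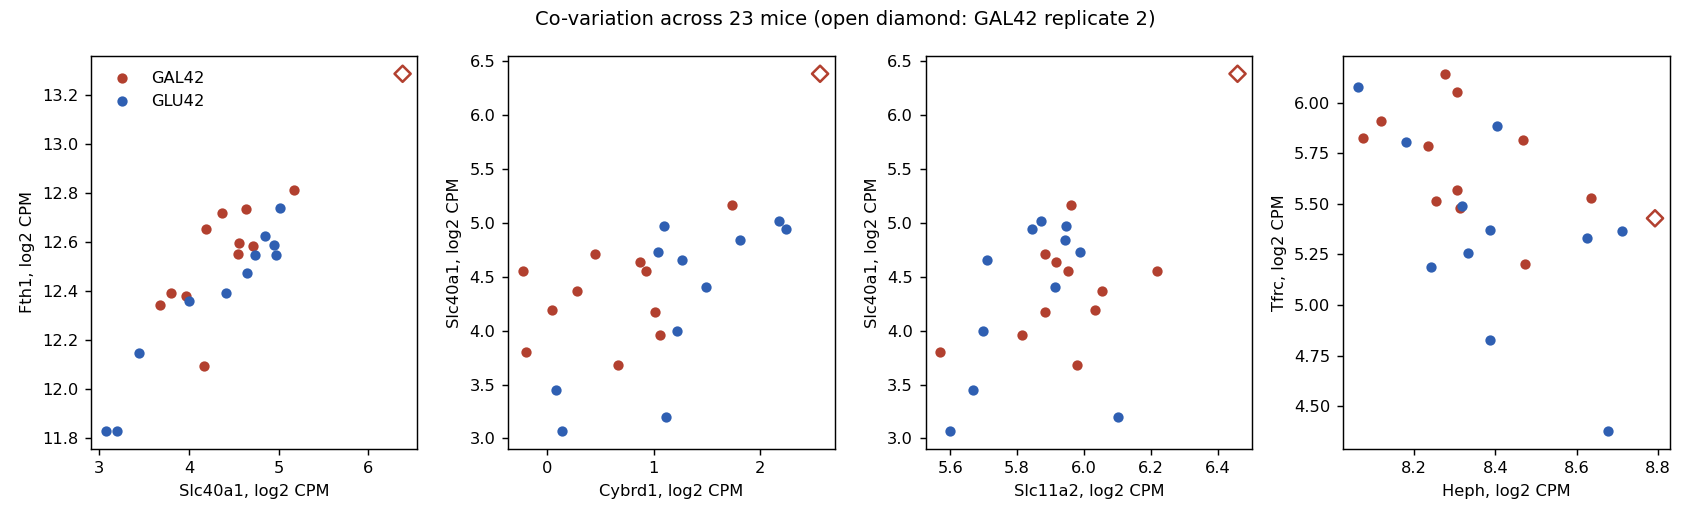
log2 CPM of 4 pairs of members across 23 mice, GAL42 and GLU42 in separate colours; the open diamond is GAL42 replicate 2. Slc40a1 and Fth1 lie along a line in both diets (r = 0.90), while Slc11a2 and Slc40a1 have r = 0.57 with the diamond and 0.33 without it; Heph and Tfrc slope down (r = -0.53).

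By Pearson r 4 pairs were negative, all of them with Tfrc, and the only one to pass was Heph with Tfrc. That pair had r = -0.53 and rho = -0.56 (adjusted permutation p = 0.032 and 0.0417). The r was -0.59 without the 2 libraries farthest from the median of Heph and -0.57 without GAL42 replicate 2, where it did not pass. Leaving out 1 library gave -0.58 to -0.45, the weakest without GLU42 replicate 4, and the pair did not pass in 5 of 23 cases. By r of deviations from the diet mean, 9.06% of all genes lay lower than Tfrc in their relation to Heph. The r of the pair was -0.51 within GAL42 and -0.59 within GLU42. After residuals on the villus tip minus crypt score it was -0.25 and did not pass. That score had r = 0.56 with Heph.

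The genes nearest to each HIF2-type member were taken by r of deviations from the diet mean, as a description. For Slc40a1, after Fth1, they were B3gnt7 (0.86), Tmem41b (0.85), Tmprss15 (0.85), which encodes the duodenal protease enteropeptidase, and AA467197 (0.84). For Cybrd1 they were Atp2b1 (0.86), a plasma membrane calcium pump, Kpna4 (0.81), Bmi1 (0.81), Tbc1d8b (0.78) and the vitamin C transporter Slc23a2 (0.78). For Slc11a2 they were Nat8 (0.83), Slc16a13 (0.80), Dglucy (0.80), Aqp11 (0.79) and Mboat7 (0.79). In that ranking Slc40a1 was number 13 for Cybrd1 and Cybrd1 was number 27 for Slc40a1, while Slc11a2 was number 294 for Slc40a1. Without GAL42 replicate 2 all of these neighbours had a lower r. The values were then 0.77 to 0.83 for Slc40a1 (Fth1 aside), 0.73 to 0.81 for Cybrd1 and 0.69 to 0.82 for Slc11a2.

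Known HIF targets outside iron transport had median correlations near those of all genes. The list was not restricted to targets of HIF2, and HIF2 protein was not measured. Their median r was 0.02 with Slc40a1, -0.08 with Cybrd1 and -0.01 with Slc11a2, over 18 genes, beside 0.0001, 0.0086 and -0.012 over all genes. Single genes lay farther out: Ankrd37 had r = 0.75 with Slc40a1 and Ndrg1 had -0.59, and both were picked here for their values. Of 7 tested importers and reductases, 2 had a positive r with Slc40a1, and the median was -0.15. The highest was the folate and haem carrier Slc46a1 at 0.82 and the lowest Steap3 at -0.30, both also picked for their values. The haem synthesis, breakdown and transport list had a positive r with Slc11a2 for 15 of 15 genes. Its median was 0.36, beside -0.012 over all genes. With Cybrd1 the same list had 9 of 15 positive (median 0.05), and with Slc40a1 11 of 15 (median 0.11). The haem list was picked for its values, and no list was compared without GAL42 replicate 2.

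Across the wider lists of iron, oxygen-sensing and metal genes, 0 genes passed the diet test in any list. The tallies of genes higher in GAL42 were not adjusted for the length slope. That slope had a median of -0.042 in GAL42 and 0.048 in GLU42 libraries, and its part in the tallies was not tested. In the mitochondrial iron and iron-sulfur cluster list 17 of 19 tested genes were higher in GAL42, beside 49.5% of all genes. This list had a median log2 difference of 0.14. Its 2 genes of smallest p pointed opposite ways: Bola3, an iron-sulfur assembly factor, averaged 37.9 ± 6.17 CPM in GAL42 and 31.1 ± 4.36 CPM in GLU42 (log2 difference 0.29 ± 0.09, edgeR adjusted p = 0.165), and the mitochondrial iron importer Slc25a37 averaged 78.6 ± 16.9 CPM in GAL42 and 102 ± 24.4 CPM in GLU42 (SD, n = 12 and 11; log2 difference -0.38 ± 0.12). The haem list had 11 of 15 higher, and Flvcr2 averaged 2.04 ± 0.724 CPM in GAL42 and 3.69 ± 2.39 CPM in GLU42 (log2 difference -0.86 ± 0.25, edgeR adjusted p = 0.156). The list drawn up here as iron export and oxidation partners had 1 of 6 higher, with a median of -0.13. Its genes of smallest p were Cdc42bpa at -0.22 and the copper pump Atp7a at -0.31. A part of Cdc42bpa in iron export was not tested. The transferrin and hepcidin list had 1 of 8 higher, with Acvr1 at -0.19 and Bmpr1a at -0.11.

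Oxygen-sensing genes lay on both sides of 0. HIF subunits and their regulators had 8 of 13 higher, with Elob at 0.22 and Egln3, a HIF prolyl hydroxylase and itself a HIF target, at -0.42. HIF targets outside iron transport had 8 of 18 higher, with a median of -0.04 and Higd1a at 0.23. Iron sensing had 2 of 7 higher, with Cisd1 at 0.22 and Fbxl5 at -0.15. Importers and reductases had 2 of 7 higher, with Slc11a1 at -0.24 and Steap3 at -0.30. The list drawn up here as storage and chaperone genes had 4 of 7 higher, with Poldip2 at 0.11 and Herc2 at -0.12. A part of Poldip2 in iron storage was not tested. Zinc and copper genes had 6 of 11 higher, with Atox1 at 0.17 and Slc30a4 at -0.16.

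**Figure D4:**
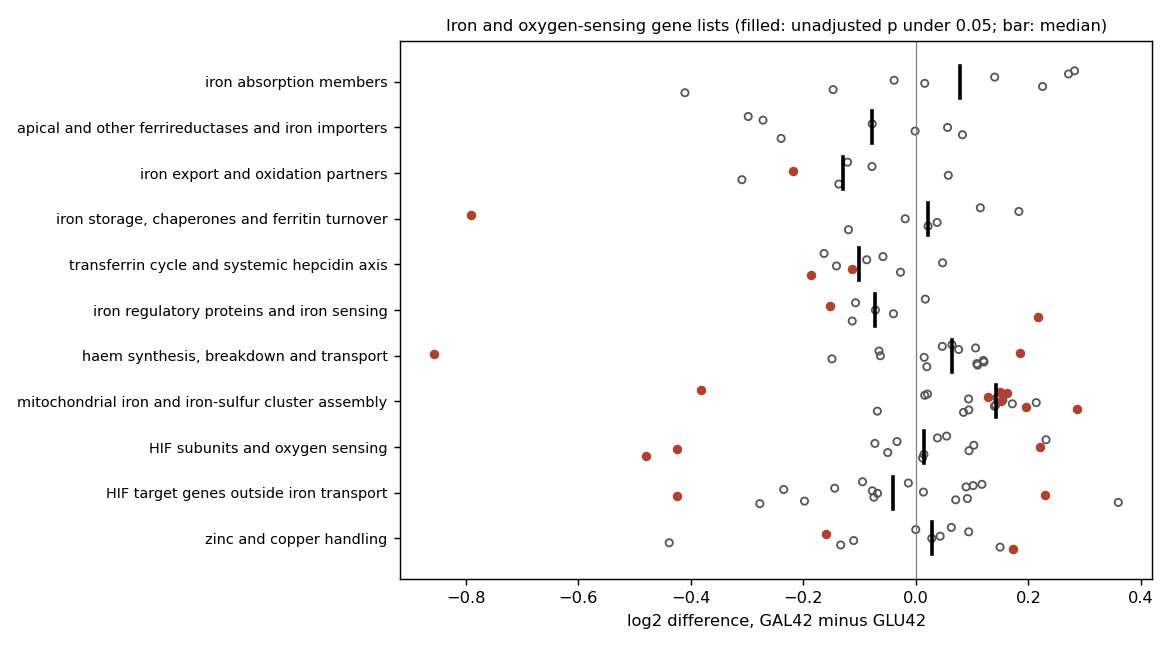
log2 difference, GAL42 minus GLU42, of each tested gene in the members and 10 related lists; filled points have an unadjusted p under 0.05 and black bars are list medians. The mitochondrial iron list has its median at 0.14 and the iron export list at -0.13, and no gene passed adjustment.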

How the data were processed

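For each mouse the authors deposited raw counts per gene. Per the submitters' processing notes these counts came from STAR and HTSeq on GRCm39; versions, annotation and strand setting were not given in the sources used here. All 5 rows that name no gene, 13.5% of reads, were left out. Symbols were matched by Ensembl identifier. The diets were compared with edgeR 4.0.16 (filterByExpr, TMM, quasi-likelihood F test, diet as the only term, Benjamini-Hochberg, threshold 0.05) over all 23 libraries. Differences are log2 values, GAL42 minus GLU42, ± standard error. Correlations used log2 CPM with a prior count of 2. The scripts were tested on simulated data. Of 121 library pairs within diets, none agreed within sampling noise (chi-square per degree of freedom at least 12.9). Named genes were all 8 members, the 2 genes of smallest p with at least 1 CPM in each list, and the 5 nearest genes with at least 10 CPM to each of Cybrd1, Slc11a2 and Slc40a1. The members and lists were chosen with earlier results of these data known. Replicate numbers follow deposit order, and p-values measure the spread between mice. Alternatives are DESeq2 1.42.0, limma 3.58.1, other scalings and filters, left-out libraries and covariates.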

Additional observations from a re-analysis of the deposited data

Results flagged for a closer look

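GAL42 replicate 12 had 225 counts summed over 4 Y-linked genes, where GLU42 libraries had at most 1. GAL42 replicate 2 had a summed level of 640 CPM over pancreatic acinar markers, where GLU42 libraries had at most 7.94 CPM. The Y-linked genes lie outside the diet test. Of the pancreatic acinar markers only Cela1 was in it, with a log2 difference of 1.09 ± 0.44 (edgeR adjusted p = 0.250). Without GAL42 replicate 12 the correlation of Slc40a1 with Fth1 was 0.92, and without GAL42 replicate 2 it was 0.86.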

How the results depend on the processing

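No paired analysis was possible because the replicate numbers follow deposit order and pair no mice. The count of genes called by diet, 0 in edgeR, was 132 with DESeq2, 167 with voom and quality weights, and 321 without GAL42 replicates 7 and 12, an alternative added after seeing the data; leaving out 1 library gave 0 to 219, with 219 reached without GAL42 replicate 7. No member was called under any setting. With the length slope as a covariate Cybrd1 turned to 0.076 and Heph to 0.10, and Ftl1 turned to -0.013 with quality weights and to -0.0085 with the gut position score; the causes were not tested. Leaving out 1 library gave log2 differences of -0.71 to -0.28 for Cybrd1, -0.044 to 0.34 for Slc40a1 and -0.030 to 0.048 for Ftl1. Cybrd1 fell below a mean of 5 CPM, so that filter gave it no value. The 9 passing pairs became 4 with library totals alone, 17 as deviations from the diet mean, 2 in GAL42 and 2 in GLU42 alone, 4 without the 2 farthest libraries, 15, 4 and 17 as residuals on the position, villus and length scores, 4 on pancreatic markers, 4 on Pdx1, and 3 on diet and length slope without GAL42 replicate 2 (these 3 settings were also added after seeing the data); leaving out 1 library gave 2 to 14. Cybrd1 with Slc11a2 passed as deviations from the diet mean (0.46) and on the length slope (0.60), and ran from 0.05 to 0.47 when 1 library was left out. Cybrd1 with Slc40a1 did not pass in GAL42 (0.74) or GLU42 (0.76) alone, and ran from 0.54 to 0.71. Slc11a2 with Slc40a1 did not pass with library totals (0.51), in GAL42 (0.73) or GLU42 (0.33) alone, without the 2 farthest libraries (0.28), as residuals on the villus score (0.51), pancreatic markers (0.27) or Pdx1 (0.46), or on diet and length slope without GAL42 replicate 2 (0.34), and ran from 0.33 to 0.71. Depth limits Cybrd1 most, at 11 reads in its lowest library.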

Other observations

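The remaining members had neighbours of their own by r of deviations from the diet mean, listed here as values. Fth1 had Slc40a1 first and then Slc46a1, the folate and haem carrier (0.89), the sulfate transporter Slc13a1 (0.86), Otop3 (0.85) and the intestinal phosphatase Akp3 (0.85). Heph had, among its nearest, Cdh17 (0.92) and Dsc2 (0.91). Tfrc had Ephb4 (0.90), Plp2 (0.85), Eed (0.85), Cenpa (0.84) and Fads1 (0.82). Epas1 had Sult6b2 (0.80), and the zinc and iron carrier Slc39a14 was the fifth (0.75). Ftl1 had Gapdh (0.74) first among the genes counted. Without GAL42 replicate 2 Slc39a14 with Epas1 was 0.65 and Cdh17 with Heph 0.89.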
